A study of Rattus norvegicus with 6 samples.

Results

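The 49 genes described here make, modify, carry or bind glycosaminoglycans. They were chosen by gene symbol, with earlier results of these data known. They cover heparan and chondroitin sulfate synthesis, hyaluronan, syndecans and glypicans. Of these, 40 had a probe on the arrays under their symbol, out of 13336 genes with a probe, and 34 were bright enough to test, out of 8671 genes tested. Each Illumina array measured RNA of the granulation tissue of 1 rat, a Sprague-Dawley animal 10 weeks old that carried a subcutaneous implant of uncoated cellulose. Rats 4, 6 and 7 gave tissue on day 3 (72 hours after implantation) and rats 1, 2 and 3 on day 1 (24 hours). The labels name no treatment beyond the implant, so both days share it, and no unimplanted tissue was analysed here.

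Glycosaminoglycans are long sugar chains. Heparan sulfate and chondroitin sulfate are built in the Golgi on a serine of a core protein, starting from a shared linker, and are then sulfated, whereas hyaluronan is made at the cell surface without a core protein or sulfate. In healing tissue these chains hold water and bind growth factors and chemokines, and on syndecans and glypicans they act as co-receptors at the cell surface.

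Between the days, 9 of the 34 tested genes rose and 4 fell, while 21 did not pass the test. The genes that rose were Sdc2, Gpc4, Chpf, Hmmr, Csgalnact1, Ext2, Papss2, B4galt7 and Xylt2, and those that fell were Hpse, Sdc1, Hs6st1 and Chst12. Of these 13, Hs6st1 was kept only because it was above background on day 1, so its place in the count is no support for a fall. A gene passed where limma's moderated test, adjusted by Benjamini and Hochberg over all 12163 probes tested, gave an adjusted p under 0.05. Over all 8671 genes tested, 13.6% passed upward and 10.7% downward, beside 26.5% and 11.8% of the 34 genes. The genes were chosen with earlier results of these data known, so the shares are a description and not a test. The median difference, day 3 minus day 1, was 0.18 over the 34 genes and -0.01 over all genes tested, on the log2 scale. In 11 genes every day 3 rat lay above every day 1 rat, and in 6 every day 3 rat lay below. Over all genes tested the shares were 22.7% and 19.0%. Hs6st1 is among the 6 and, kept only through day 1, had to lie apart.

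These counts depended on single rats. By the same limma test, the number that rose was 5 when rat 6 or rat 7 was left out. It was 7 for rat 2, and stayed at 9 for rat 1, rat 3 or rat 4. The number that fell was 0 when rat 1, rat 2 or rat 7 was left out, 1 for rat 4 or rat 6, and 8 for rat 3. At an unadjusted p under 0.05, limma gave 4 lower genes with rat 1 left out, and 5 with either rat 2 or rat 7 left out, beside 7 with all rats. Csgalnact1, Sdc2, Chpf, Hmmr and B4galt7 passed in each of the 6 refits that left out 1 rat, and the other 8 did not. Counts over all probes tested shifted as well, so the dependence was not confined to the genes described here. With all rats, 1523 probes passed as higher on day 3 and 1206 as lower. Without rats 1, 2, 3, 4, 6 and 7 in turn, 1155, 799, 1954, 1167, 777 and 874 were higher. In the same order, 714, 516, 1846, 898, 566 and 586 were lower.

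**Figure D1:**
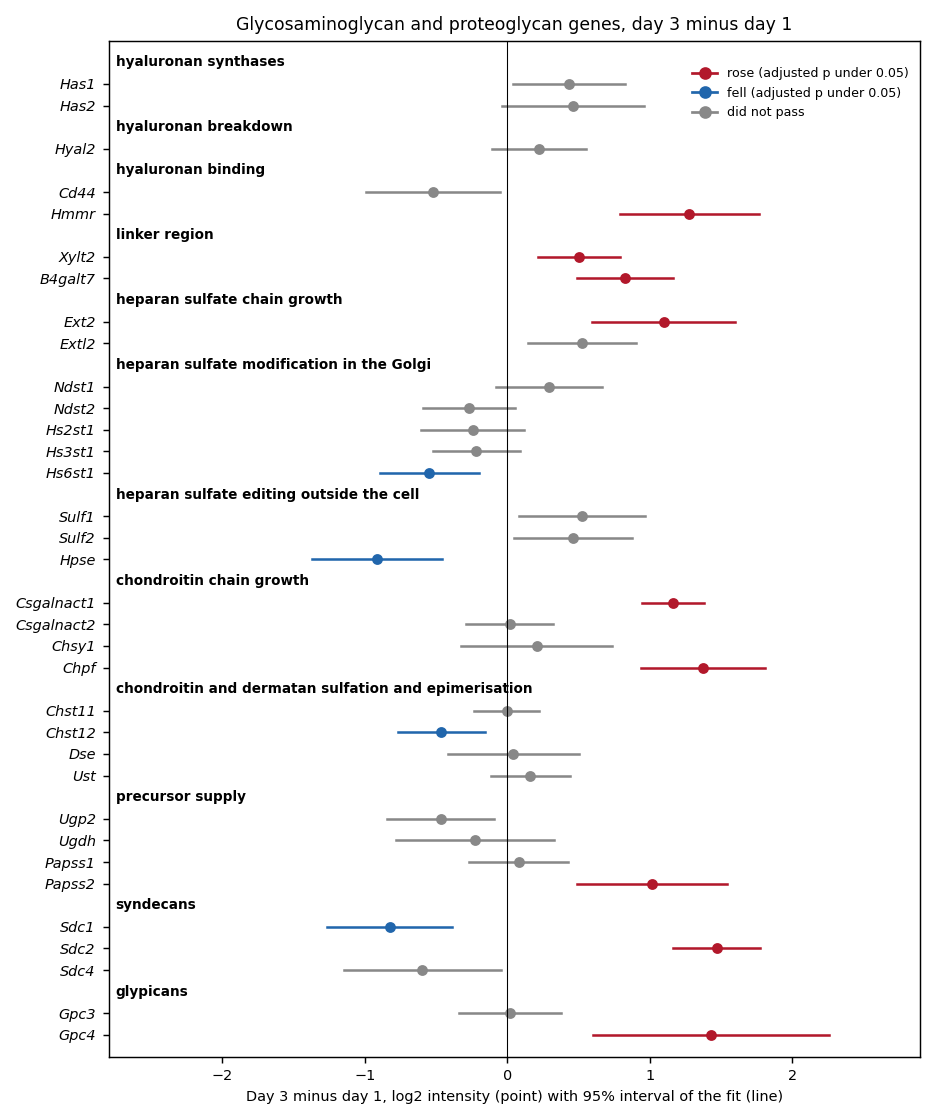
Day 3 minus day 1 difference in log2 intensity for each of the 34 tested genes, grouped by role. Points are differences, lines are 95% intervals of the limma fit over 3 rats a day, and colours mark the 9 genes that rose, the 4 that fell and the 21 that did not pass.

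The arrays of rats 4, 6 and 7 correlated with each other at r = 0.988 to 0.992 over the tested probes, and rat 1 with rat 2 at r = 0.991. Rat 3 stood apart, at r = 0.957 to 0.964 with the other day 1 rats. Rats of different days correlated at r = 0.922 to 0.964. The median excess of rat 3 over the mean of rats 1 and 2 was 3.01 on the log2 scale over 8 adipocyte markers, whose deposited intensities summed to 123262 in rat 3 and to 34285 to 64112 in the other rats. The summed intensity of 7 skeletal muscle markers lay between 14183 and 16144 in rats 2, 3 and 6, and between 918 and 1058 in rats 1, 4 and 7. Of 12 fibroblast markers 9 rose, with a sum of 152630 to 177466 on day 3 and 66008 to 81538 on day 1. Fbln1 was lower in every day 3 rat (difference -0.56) and did not pass. Of 7 endothelial markers 6 rose, with sums of 13656 to 17981 on day 3 and 6336 to 7593 on day 1. Cdh5 was not above background in any rat. Of 10 neutrophil markers 9 fell (5128 to 9894 on day 3, 22679 to 49407 on day 1), with Ltf and Ngp not above background in any rat and S100a9 above it in rat 1 alone. All 7 mast cell markers tested fell (1198 to 1904 on day 3, 4944 to 8310 on day 1), with Kit and Mcpt1 not above background. Hdc alone gave 1488 to 5811 of the day 1 sums. It was lowest in rat 3 among day 1 rats, whereas Cpa3, Tpsab1, Tpsb2, Cma1 and Fcer1a were highest there. Ms4a2 and Fcer1a were above background in 1 of 3 day 3 rats and in 3 of 3 on day 1. Of 8 macrophage and monocyte markers 4 rose and 2 fell (18148 to 29411 on day 3, 18788 to 25726 on day 1). Of 4 tested smooth muscle and pericyte markers 3 passed as higher on day 3, among them Rgs5, which was above background in 0 of 3 day 1 rats and so was kept only through day 3; Cnn1 and Notch3 were too dim to test. The 3 tested keratinocyte markers were higher on day 3, but Krt10 and Tp63 were likewise kept only through day 3, and Krt14, Krt1 and Ivl were too dim to test. None of the tested markers of B lymphocytes (1), T and NK lymphocytes (8), erythroid cells (3), adipocytes (8) or skeletal muscle (7) passed. The part of these cell types in the results below was not tested, and in whole tissue a change in the number of cells of a type cannot be told apart from a change in RNA per cell.

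Syndecans span the membrane and carry heparan sulfate on their outer part. Sdc2, the syndecan of fibroblasts and other mesenchymal cells, had log2 intensities of 10.86, 10.95 and 10.91 in rats 4, 6 and 7 on day 3, against 9.24, 9.40 and 9.66 in rats 1, 2 and 3 on day 1. The days lay apart and the day 3 rats lay within 0.1 of each other. Sdc2 rose by 1.47 (SE 0.13, 2.77-fold, adjusted p = 0.00136 by limma), and its adjusted p was at most 0.0116 in the refits that left out 1 rat.

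Sdc1, a syndecan known from epithelia, plasma cells and wound edges, went the other way. Its levels were 10.76, 10.98 and 10.49 in rats 4, 6 and 7, against 11.64, 11.80 and 11.26 in rats 1, 2 and 3. Every day 3 rat lay below every day 1 rat. Sdc1 fell by 0.82 (SE 0.18, 1.77-fold, adjusted p = 0.0226 by limma), and did not pass when rat 1, 2, 4 or 7 was left out (adjusted p 0.061 to 0.0787).

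Sdc4, the syndecan of focal adhesions, read 7.46, 7.67 and 7.52 on day 3 (rats 4, 6 and 7), against 8.15, 8.61 and 7.67 on day 1 (rats 1, 2 and 3). All day 1 rats lay above the day 3 rats, but rat 3 lay above rat 6 by less than 0.01. The difference of -0.60 (SE 0.23, adjusted p = 0.117 by limma) did not pass with all rats and was -0.83 (adjusted p = 0.00779) without rat 3. Sdc3, the syndecan best known from neural tissue, was not above background in any rat.

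Glypicans hang from the outer membrane leaflet by a lipid anchor. Gpc4, one of them, had levels of 9.01, 9.67 and 9.01 in rats 4, 6 and 7, against 7.43, 7.42 and 8.55 in rats 1, 2 and 3. Rat 3, the rat with the high adipocyte markers, lay above the other day 1 rats by over 1, and below every day 3 rat. Gpc4 rose by 1.43 (SE 0.35, 2.70-fold, adjusted p = 0.0289 by limma). The difference was 1.81 (adjusted p = 0.00118) without rat 3, and the adjusted p was 0.0583 to 0.102 in each of the other 5 refits. Gpc3 differed by 0.02 (SE 0.15, 95% interval -0.34 to 0.38) and did not pass. Gpc1 and Gpc6 had no probe under their symbols and were not analysed here.

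**Figure D2:**
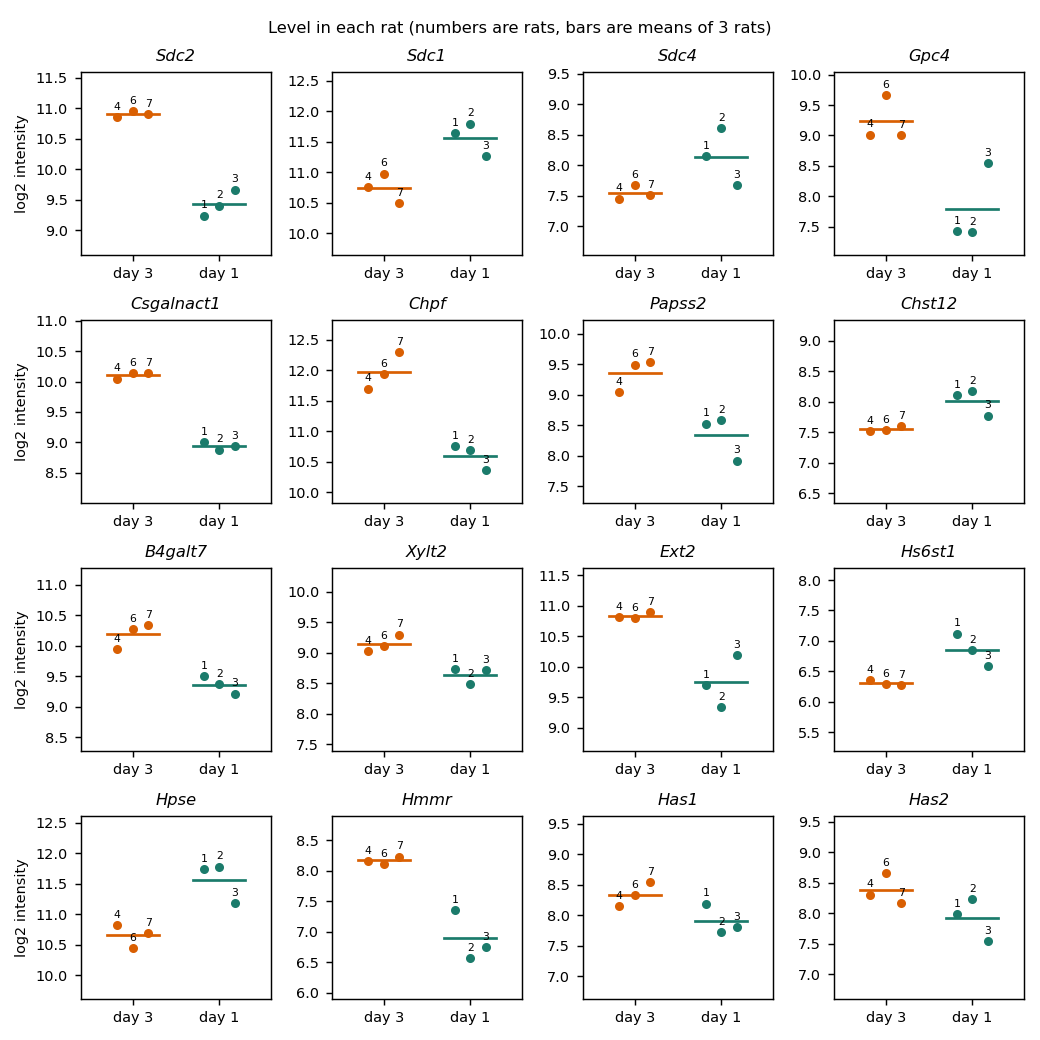
Log2 intensity of 16 of the genes in every rat, on an axis of the same span in each panel; points carry rat numbers and bars are means of 3 rats, with day 3 on the left and day 1 on the right. Sdc2 and Csgalnact1 show tight, separate days, whereas Has1 and Has2 overlap.

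Chondroitin chains are lengthened by a complex of chondroitin synthases with the polymerizing factor Chpf, after an N-acetylgalactosaminyltransferase has put the starting sugar on the linker. Csgalnact1, that starting enzyme, had levels of 10.05, 10.14 and 10.14 in rats 4, 6 and 7, against 9.01, 8.88 and 8.94 in rats 1, 2 and 3. Within each day the rats lay within 0.13 of each other, and the days were far apart. Csgalnact1 rose by 1.16 (SE 0.09, 2.24-fold, adjusted p = 0.00103 by limma), the lowest adjusted p among the 34 genes, and its difference ran from 1.13 to 1.20 in the refits that left out 1 rat.

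Chpf had levels of 11.70, 11.94 and 12.30 in rats 4, 6 and 7, against 10.76, 10.69 and 10.36 in rats 1, 2 and 3. It was higher in every day 3 rat, with a wider spread than Csgalnact1. Chpf rose by 1.37 (SE 0.18, 2.59-fold, adjusted p = 0.00436 by limma). The sister enzyme Csgalnact2 differed by 0.02 (SE 0.13, 95% interval -0.29 to 0.32) and the synthase Chsy1 by 0.21 (SE 0.22, 95% interval -0.32 to 0.73). Both lay close to the background limit of 6.42, with Csgalnact2 between 6.21 and 6.62 and Chsy1 between 6.33 and 7.15.

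Of 4 tested enzymes that sulfate chondroitin or convert it to dermatan sulfate, 1 fell and 3 did not pass. Chst12, which sulfates N-acetylgalactosamine in the chain, had levels of 7.52, 7.54 and 7.60 in rats 4, 6 and 7, against 8.11, 8.17 and 7.77 in rats 1, 2 and 3. It fell by 0.46 (SE 0.13, 1.38-fold, adjusted p = 0.0431 by limma). It passed without rat 3 (adjusted p = 0.00518) and in none of the other 5 refits (0.1 to 0.131), nor with the trend and robust variance model. The related sulfotransferase Chst11 differed by -0.01 (SE 0.10) at levels of 6.63 to 6.82, near background. Dse, the epimerase of dermatan sulfate, differed by 0.04 (SE 0.19, 95% interval -0.42 to 0.50), and Ust, a uronyl sulfotransferase, by 0.16 (SE 0.12). Chst3 was not above background in any rat, and Chst14 and the N-acetylglucosamine sulfotransferase Chst2 had no probe under their symbols.

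Both tested genes of the shared linker rose. B4galt7, which adds the galactose next to xylose, had levels of 9.95, 10.27 and 10.34 in rats 4, 6 and 7, against 9.50, 9.37 and 9.21 in rats 1, 2 and 3. The days did not overlap, and B4galt7 rose by 0.83 (SE 0.14, 1.77-fold, adjusted p = 0.00925 by limma). Xylt2, which attaches xylose to the core protein, had levels of 9.03, 9.11 and 9.30 on day 3 (rats 4, 6 and 7), against 8.73, 8.49 and 8.72 on day 1 (rats 1, 2 and 3). Its days lay apart too, by less than for B4galt7. Xylt2 rose by 0.50 (SE 0.12, 1.42-fold, adjusted p = 0.0271 by limma). With rat 1, 2, 6 or 7 left out its adjusted p was 0.0543 to 0.0881. B3galt6, the next galactosyltransferase, was not above background, and Xylt1 and B3gat3 had no probe under their symbols.

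Heparan sulfate is polymerized by a complex of Ext1 and Ext2, of which Ext2 had a probe. Ext2 had levels of 10.81, 10.80 and 10.90 in rats 4, 6 and 7, against 9.69, 9.34 and 10.19 in rats 1, 2 and 3. The day 3 rats were close together and rat 3 was the highest of day 1. Ext2 rose by 1.10 (SE 0.21, 2.14-fold, adjusted p = 0.0136 by limma), with adjusted p of 0.0513 without rat 6, 0.0533 without rat 7 and 0.000755 without rat 3. Extl2, a transferase that acts on the linker, was higher in every day 3 rat, and its difference of 0.52 (SE 0.16, adjusted p = 0.0596 by limma) did not pass with all rats but did without rat 1 (adjusted p = 0.0286). Extl3, the starting enzyme of heparan sulfate, was not above background.

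Of 5 tested enzymes that modify heparan sulfate in the Golgi, 4 did not pass, and the fifth, Hs6st1, has only a bound. Hs6st1, a sulfotransferase of glucosamine, had levels of 6.36, 6.29 and 6.28 in rats 4, 6 and 7, against 7.12, 6.86 and 6.59 in rats 1, 2 and 3. It was above background in 0 of 3 rats on day 3 and 3 of 3 on day 1, so it was kept only through the day on which it was higher and had to differ. Taken against the background limit, it was at least 1.35-fold lower on day 3, a bound that was not itself tested. The adjusted p of 0.0386 by limma belongs to the difference without that limit, and is no support for a fall. That adjusted p was 0.00562 without rat 3 and 0.0829 to 0.121 in the other 5 refits. The N-deacetylase and N-sulfotransferases Ndst1 and Ndst2 differed by 0.29 (SE 0.16) and -0.27 (SE 0.14, adjusted p = 0.22 by limma, 0.0417 without rat 3). Hs2st1, which sulfates uronic acid, differed by -0.24 (SE 0.15), and Hs3st1, which makes the antithrombin-binding site, by -0.22 (SE 0.13). Glce had no probe under its symbol.

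Outside the cell heparan sulfate is cut by heparanase and loses sulfate to the Sulf enzymes. Hpse, the heparanase, had levels of 10.82, 10.44 and 10.69 in rats 4, 6 and 7, against 11.74, 11.78 and 11.18 in rats 1, 2 and 3. Every day 3 rat lay below every day 1 rat, with rat 3 the lowest of day 1. The summed neutrophil markers were lowest in rat 3 too (rat 1 at 49407, rat 2 at 43125 and rat 3 at 22679). So were the sums for fibroblasts, smooth muscle and pericytes, macrophages and monocytes, mast cells, keratinocytes, T and NK lymphocytes and cycling cells. Those for endothelial cells, adipocytes, skeletal muscle, B lymphocytes and erythroid cells were not. Single markers did not all follow the sum of their type. Among day 1 rats, neutrophil Mpo, smooth muscle Myl9 and mast cell Cpa3, Tpsab1, Tpsb2, Cma1 and Fcer1a were highest in rat 3. The part of any cell type in the Hpse value was not tested. Hpse fell by 0.91 (SE 0.19, 1.88-fold, adjusted p = 0.0187 by limma). The adjusted p was 0.00143 when rat 3 was left out, and 0.0569 to 0.0722 for rat 1, 2, 6 or 7. Sulf1 and Sulf2 had differences of 0.52 (SE 0.19, adjusted p = 0.0928) and 0.46 (SE 0.17, adjusted p = 0.11), which did not pass in limma's test with all rats. Sulf1 passed without rat 4 (adjusted p = 0.0432) and Sulf2 without rat 1 (adjusted p = 0.0215).

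**Figure D3:**
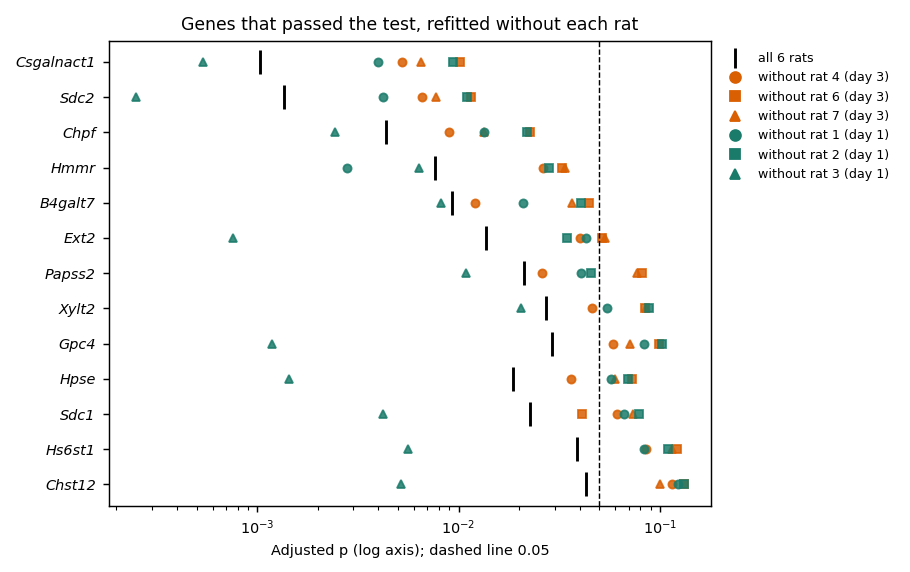
Adjusted p of the 13 genes that passed, with all 6 rats (bars) and without each rat in turn (points), on a log axis with the threshold of 0.05 dashed. The points of Csgalnact1, Sdc2, Chpf, Hmmr and B4galt7 all lie left of the line, and for Gpc4, Hs6st1 and Chst12 only the refit without rat 3 does.

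Sulfation needs the donor PAPS, made by the Papss enzymes, and chain growth needs UDP-sugars. Papss2 had levels of 9.04, 9.49 and 9.53 in rats 4, 6 and 7, against 8.52, 8.58 and 7.92 in rats 1, 2 and 3. The days lay apart, and Papss2 rose by 1.01 (SE 0.22, 2.02-fold, adjusted p = 0.0211 by limma), with adjusted p of 0.0812 without rat 6 and 0.0769 without rat 7. Papss1 was the only one of the 49 genes with more than 1 probe, and its probes gave 0.08 (SE 0.14) and -0.16 (SE 0.11), neither of which passed. Ugp2, which makes UDP-glucose, was lower in every day 3 rat, and its difference of -0.47 (SE 0.16, adjusted p = 0.0796 by limma) did not pass. Ugdh, which oxidises UDP-glucose to UDP-glucuronic acid, had levels of 12.70, 12.68 and 12.77 on day 3 (rats 4, 6 and 7), against 13.41, 12.97 and 12.45 on day 1 (rats 1, 2 and 3). Its day 1 rats spread to both sides of the day 3 rats, and its difference of -0.23 (SE 0.23, adjusted p = 0.562 by limma) did not pass; without rat 3 it was -0.47 (adjusted p = 0.0456).

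Neither tested hyaluronan synthase passed. Has1 had levels of 8.15, 8.34 and 8.54 in rats 4, 6 and 7, against 8.19, 7.73 and 7.81 in rats 1, 2 and 3. Has2, the synthase needed for heart development in the mouse, had levels of 8.31, 8.66 and 8.17 in rats 4, 6 and 7, against 7.98, 8.23 and 7.54 in rats 1, 2 and 3. In each gene 1 day 1 rat lay inside the range of day 3, rat 1 for Has1 and rat 2 for Has2. The differences were 0.43 (SE 0.16, 95% interval 0.04 to 0.83, adjusted p = 0.111) for Has1 and 0.46 (SE 0.21, 95% interval -0.04 to 0.96, adjusted p = 0.172) for Has2 by limma. Has3 and the hyaluronidase Hyal1 were not above background in any rat, and the hyaluronidase Hyal2 differed by 0.22 (SE 0.14).

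Among hyaluronan binders, Hmmr rose and Cd44 did not pass. Hmmr, a hyaluronan-binding protein that also sits on the mitotic spindle, had levels of 8.16, 8.11 and 8.23 in rats 4, 6 and 7, against 7.36, 6.57 and 6.75 in rats 1, 2 and 3. It rose by 1.28 (SE 0.20, 2.43-fold, adjusted p = 0.0076 by limma). The 7 tested markers of cycling cells passed as higher too, with summed intensities of 12291 to 15952 on day 3 and 2008 to 3699 on day 1. One of them, Cenpf, was above background in 0 of 3 day 1 rats and so was kept only through day 3, and an eighth, Ccnb1, was not above background in any rat. The part of cycling cells in the Hmmr value was not tested. Cd44, the main hyaluronan receptor of leukocytes and fibroblasts, had levels of 11.57, 11.18 and 11.47 on day 3 (rats 4, 6 and 7), against 11.95, 12.26 and 11.57 on day 1 (rats 1, 2 and 3). Its difference of -0.52 (SE 0.20, adjusted p = 0.111 by limma) did not pass with all rats, and was -0.70 (adjusted p = 0.0151) without rat 3. Tnfaip6, which links proteins to hyaluronan, had no probe under its symbol.

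Promoter windows from RefSeq (build GRCr8, 250 bases before to 50 after the gene's start, 5′ to 3′ on the gene's strand) were found for 28 of the 34 tested genes, 6 of the 9 that rose and all 4 that fell. Those of Hmmr, Chpf and Sdc1 are shown because these genes moved in opposite directions and their windows differ in content. They lie at chr10:25665166-25665465 (minus strand), chr9:84416474-84416773 (minus strand) and chr6:37281791-37282090 (plus strand). Capitals mark matches on either strand to the promoter box with letters TATAAA, the box that binds NF-Y with letters CCAAT, the GC box with letters GGGCGG, the cAMP response element (CRE) with letters TGACGTCA, the AP-1 site with letters TGANTCA and the core of the hypoxia element with letters ACGTG. No matches overlap in these windows; in Hmmr the ACGTG abuts a CCAAT box.
Hmmr: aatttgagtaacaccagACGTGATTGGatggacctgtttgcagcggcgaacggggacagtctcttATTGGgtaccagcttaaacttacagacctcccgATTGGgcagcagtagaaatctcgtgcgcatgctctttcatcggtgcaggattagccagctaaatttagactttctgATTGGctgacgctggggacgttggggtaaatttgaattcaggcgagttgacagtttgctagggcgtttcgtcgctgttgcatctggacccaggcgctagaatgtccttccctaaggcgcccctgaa
Chpf: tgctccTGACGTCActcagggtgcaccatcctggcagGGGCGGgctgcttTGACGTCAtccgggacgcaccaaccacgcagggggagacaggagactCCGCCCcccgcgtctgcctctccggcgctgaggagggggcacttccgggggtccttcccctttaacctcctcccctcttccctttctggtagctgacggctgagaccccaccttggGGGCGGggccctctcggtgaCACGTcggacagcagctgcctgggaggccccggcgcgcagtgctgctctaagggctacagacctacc
Sdc1: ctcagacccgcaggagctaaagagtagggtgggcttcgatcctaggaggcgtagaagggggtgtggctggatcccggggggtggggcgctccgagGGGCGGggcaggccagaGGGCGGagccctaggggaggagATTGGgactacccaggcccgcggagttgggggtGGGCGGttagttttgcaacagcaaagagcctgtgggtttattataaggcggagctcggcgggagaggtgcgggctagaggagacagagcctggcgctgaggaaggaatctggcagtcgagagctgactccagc
The Hmmr window held 4 CCAAT boxes, all on the opposite strand and so printed as ATTGG, with a single copy of the hypoxia core. At least 4 CCAAT boxes occurred in 0.675% of 33469 rat windows of 300 bases. The Chpf window held 2 copies of TGACGTCA, found at least that often in 0.0418% of all windows, together with 3 GC boxes and 1 ACGTG. The Sdc1 window held 3 GC boxes and 1 CCAAT box. At least 3 GC boxes occurred in 8.97% of all windows. The windows were picked partly for their content, and the repeat numbers were set to what they held. The shares for repeats therefore cannot tell whether these windows are unusual. A GC box was in the windows of 5 of 6 genes that rose, 3 of 4 that fell and 12 of 18 that did not pass, against 33.1% of all windows, which include many noncoding genes. The hypoxia core was in 3 of 6, 1 of 4 and 5 of 18, against 19.3% of all windows. None of these 28 windows held the AP-1 letters, which occurred in 7.33% of all windows. These matches describe letters, and binding was not measured.

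The wider pathway was read from lists of other genes. Of 4 tested genes of glycosaminoglycan synthesis 2 rose (median difference 0.56): Chpf2, a partner of Chpf in chondroitin polymerization, by 1.12 (SE 0.18, adjusted p = 0.00774) and Pxylp1, which removes phosphate from the linker xylose, by 0.87 (SE 0.22, adjusted p = 0.0337), which passed in 3 of 6 refits (up to 0.117, without rat 6). Of 6 tested genes of keratan sulfate synthesis 2 rose (median 0.11), B3gnt7 by 0.67 (SE 0.10, adjusted p = 0.00571) and the sulfotransferase Chst1 by 0.67 (SE 0.15, adjusted p = 0.0232), which passed in 2 of 6 refits (up to 0.0794, without rat 7). Of 11 tested genes of sugar nucleotide supply and Golgi transport 1 rose (median 0.27), the PAPS transporter Slc35b2, by 0.80 (SE 0.14, adjusted p = 0.0111). The share that rose over all genes tested was 13.6%, as above, and these p-values are from the same limma fit.

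Genes of lysosomal breakdown were read as well, at the level of RNA only. Of 7 tested lysosomal enzymes of glycosaminoglycans 4 rose and 3 did not pass (median 0.77), beside 13.6% that rose over all genes tested. Breakdown itself was not measured. Hexa, a hexosaminidase subunit, had levels of 11.19, 11.30 and 11.33 in rats 4, 6 and 7, against 10.25, 9.96 and 10.04 in rats 1, 2 and 3, and rose by 1.19 (SE 0.11, adjusted p = 0.0017 by limma). Gusb, the beta-glucuronidase, rose by 1.04 (SE 0.11, adjusted p = 0.00246 by limma). Of 8 other tested hyaluronan binders and breakdown genes 7 did not pass (median of the 8, 0.21). The eighth, the link protein Hapln3, was above background in 3 of 3 rats on day 3 and 0 of 3 on day 1, so it was kept only through day 3 and had to differ. Taken against the background limit, it was at least 1.09-fold higher on day 3, a bound that was not itself tested. The adjusted p of 0.0466 by limma belongs to the difference without that limit, and is no support for a rise. Hapln3 did not pass in any refit that left out 1 rat.

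Core proteins outside the syndecans and glypicans split. Of 11 tested, 3 rose, 3 fell and 5 did not pass (median 0.21). Over all genes tested, 13.6% rose and 10.7% fell. Col18a1, a basement membrane collagen that carries heparan sulfate, had levels of 11.08, 11.53 and 11.16 in rats 4, 6 and 7, against 9.68, 9.27 and 9.59 in rats 1, 2 and 3. It rose by 1.74 (SE 0.17, adjusted p = 0.00174 by limma). Agrn, the heparan sulfate proteoglycan agrin, rose by 1.11 (SE 0.23, adjusted p = 0.0173 by limma), and passed in 3 of 6 refits (up to 0.0681, without rat 6). Srgn, the granule proteoglycan of blood-derived cells, had levels of 7.78, 7.68 and 7.33 on day 3 (rats 4, 6 and 7), against 9.46, 9.53 and 8.95 on day 1 (rats 1, 2 and 3). It fell by 1.72 (SE 0.19, adjusted p = 0.0027 by limma), beside the falls of neutrophil and mast cell markers given above. Vcan, the chondroitin sulfate proteoglycan versican, fell by 0.88 (SE 0.18, adjusted p = 0.0167 by limma), and passed in 2 of 6 refits (up to 0.0627, without rat 6).

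**Figure D4:**
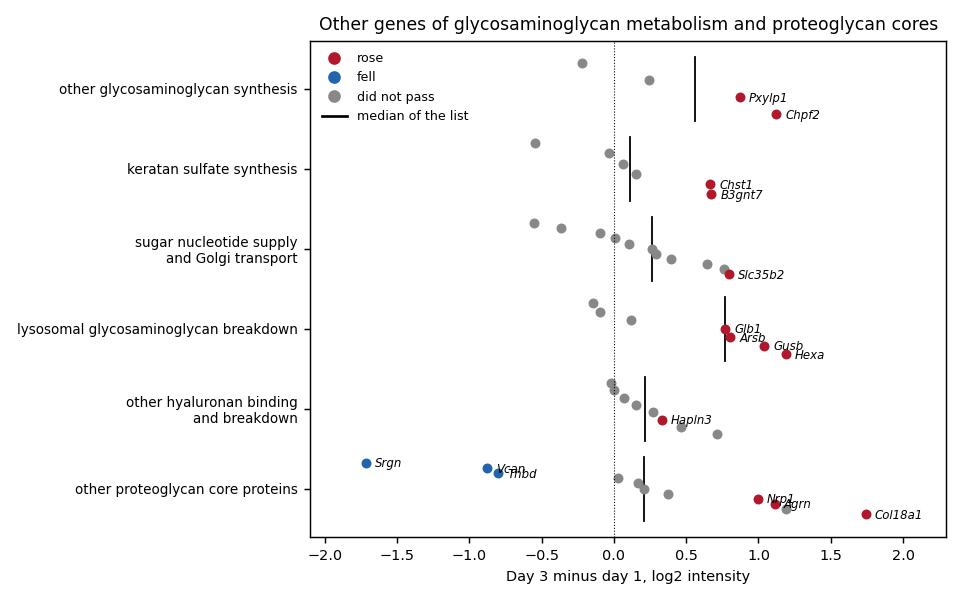
Day 3 minus day 1 difference in log2 intensity of each tested gene in 6 other lists of the pathway; points are genes, names are given for genes that passed the test and black lines are list medians. The 4 lysosomal enzymes that rose lie between 0.77 and 1.19, and Srgn lies lowest of all the points.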

How the data were processed

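The study measured RNA in 6 rats with 1 Illumina array each, 3 on day 3 and 3 on day 1. The values are the authors' deposited intensities on the linear scale, already on nearly the same distribution in every array; limma is named per the submitters' processing notes, and the background setting is not given in the sources used here. A second table of 12 columns carries names that match no sample label and was not used. Intensities were corrected with limma's normexp (offset 50), quantile-normalized again and taken to log2. With no detection values used, background was taken from the intensities themselves. Their mode was 86.1, and the spread below the mode gave a limit of 101 at the 95th percentile. Of 22517 probes, 12163 exceeded that limit in 3 or more of the 6 arrays and were tested; each array had 11920 probes over it. Where a gene had several tested probes, the one with the highest mean stood for it. Probe symbols come from the platform annotation, in which 13787 probes carried 1 gene symbol and 8730 none.

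Day 3 was compared with day 1 by limma 3.58.1 (lmFit and eBayes, R 4.3.3), unpaired because every array is a different rat, two-sided, with p-values adjusted over all kept probes and 0.05 as the threshold. Levels are log2 intensities; levels of different probes are not comparable. The pipeline was tested on simulated data. The number of arrays limits the precision. Alternatives were no background correction, offset 16, cyclic loess, no filter, a stricter filter (99th percentile, every array), a robust variance model with a trend, array weights, a test without moderation, other probes and leaving out each rat. The setting with no background correction also left out the added quantile normalization. All 34 tested genes are accounted for; from other lists up to 2 genes per direction that passed with the largest difference are named, or the 2 brightest where none passed. The genes and lists were chosen with earlier results of these data known.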

Additional observations from a re-analysis of the deposited data

How the results depend on the processing

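No paired analysis was possible because every array is a different rat and no rat number occurs on both days. The count of the 34 genes that rose was 9 under no background correction, offset 16, cyclic loess, no filter, the stricter filter and the trend model, 11 with array weights, 3 with the test without moderation, and 5 to 9 in the refits without 1 rat. The stricter filter left Hs6st1, Csgalnact2, Chsy1 and Ust untested. The count that fell was 3 there, without Hs6st1, and 3 with the trend model, where Chst12 did not pass. It was 4 under the other 4 of those settings and 8 with array weights. With the test without moderation it was 0 (4 at an unadjusted p under 0.05), and in the refits it ran from 0 to 8. Over all kept probes array weights gave 1956 lower on day 3, against 1206, and the test without moderation gave 676 higher and 381 lower; the refits ran from 777 to 1954 higher and from 516 to 1846 lower. The refits had fewer rats, and the cause of these shifts was not tested. Each of the 13 genes that passed kept its direction under every alternative run. For Hs6st1, kept only through day 1, that is no support for a fall. Of the 13 genes, 5 passed in all 6 refits and 3 (Csgalnact1, Chpf and Sdc2) under all 8 other alternatives. Of the 21 that did not pass, 7 passed in a refit. Signs turned only in genes that did not pass. Csgalnact2 was -0.082 with array weights. Dse was -0.022 with cyclic loess and -0.040 with array weights. Papss1 was -0.16 by its other probe. In the refits without 1 rat, Csgalnact2 ran from -0.11 to 0.093, Chst11 from -0.062 to 0.032, Dse from -0.11 to 0.20, Ugdh from -0.47 to 0.0066, Papss1 from -0.0035 to 0.21 and Gpc3 from -0.13 to 0.13. Signal over background limits Hs6st1 and Hapln3, each above it on a single day, to a bound, and left 6 of the 40 genes with a probe untested.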
